A study of Mus musculus with 6 samples.

Results

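The genes described here are 8 neighbours of Morc3 on mouse chromosome 16: Setd4, Cbr1, Cbr3, Dopey2, Chaf1b, Cldn14, Hlcs and Ripply3. They were chosen by position, as listed symbols that lie around the edited gene, and they are 8 of 24054 gene rows in the count files. Their levels were measured by RNA-seq in embryonic stem (ES) cells, pluripotent cells grown here without feeder cells on gelatin in medium with serum and LIF. The ko libraries came from KO27-1, KO27-2 and KO27-3, which carry a Morc3 knock out and are called ko clones 1, 2 and 3. According to the methods of the study each is a single clone that was derived from wt26 cells by Cas9 cutting. The wild-type libraries came from cultures p42, p43 and p56 of WT26, and the meaning of the letter p was not given in the labels. The labels name no further treatment. The comparison asks whether transcript levels next to the edited gene differ between ko and wild-type cells.

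The neighbours belong to unrelated pathways. Chaf1b encodes the p60 subunit of chromatin assembly factor 1 (CAF-1), which deposits histones H3 and H4 on newly replicated DNA. Cbr1 and Cbr3 encode paralogous carbonyl reductases, NADPH-dependent enzymes that reduce ketones and aldehydes. Setd4 encodes a SET domain methyltransferase, and Hlcs encodes holocarboxylase synthetase, the enzyme that attaches biotin to carboxylases. Dopey2 (current symbol Dop1b) belongs to the Dopey family, which works with Mon2 in traffic between endosomes and the Golgi. Cldn14 encodes a claudin of tight junctions, and Ripply3 encodes a corepressor that binds T-box transcription factors. In the human genome the counterparts of these genes lie on the chromosome that is present in an extra copy in Down syndrome.

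On the GRCm38 assembly, the assembly that mm10 names, the 8 genes spanned 0.753 Mb together with Morc3 (chr16:93832121-93876077, plus strand). On the lower-coordinate side, Setd4 (chr16:93583457-93604791, minus strand) was 227 kb from Morc3, Cbr1 (chr16:93607837-93610349, plus strand) 222 kb, Cbr3 (chr16:93683219-93690991, plus strand) 141 kb and Dopey2 (chr16:93711907-93810588, plus strand) 21.5 kb. On the other side, Chaf1b (chr16:93883900-93906115, plus strand) began 7.82 kb after the end of Morc3. Cldn14 (chr16:93919031-94008837, minus strand) followed at 42.95 kb, Hlcs (chr16:94129306-94315239, minus strand) at 253 kb and Ripply3 (chr16:94328422-94336935, plus strand) at 452 kb. Chaf1b and Dopey2 were thus the closest neighbours.

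To show the start regions of these genes, windows of 300 bases were read from RefSeq (GRCm38.p6), from 250 bases before to 50 bases after the annotated start. 7 of the 8 genes had a window, and the window of the 5-prime-most start was used where several were given. The windows were searched on both strands for the GC box GGGCGG, the CCAAT box CCAAT, the TATA box TATAAA and the letters TGACNNNGC of the antioxidant response element. Of 32851 windows in the same table, 35.7% held GGGCGG, 37.4% held CCAAT, 13.6% held TATAAA and 12.4% held TGACNNNGC. 4 windows are printed because they carry the contrasts in level described below, namely the closest neighbour with the highest level (Chaf1b), the reductase paralogs (Cbr1 and Cbr3) and the gene without detectable transcripts (Cldn14). Capitals mark matches of these motifs on either strand.
Chaf1b (chr16:93883651-93883950, plus strand): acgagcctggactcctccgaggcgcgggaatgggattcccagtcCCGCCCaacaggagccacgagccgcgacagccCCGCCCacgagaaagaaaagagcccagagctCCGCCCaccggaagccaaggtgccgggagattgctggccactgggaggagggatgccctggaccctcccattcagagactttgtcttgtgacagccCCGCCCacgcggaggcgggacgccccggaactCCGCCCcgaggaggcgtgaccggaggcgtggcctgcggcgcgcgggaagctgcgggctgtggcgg
Cbr1 (chr16:93607587-93607886, plus strand): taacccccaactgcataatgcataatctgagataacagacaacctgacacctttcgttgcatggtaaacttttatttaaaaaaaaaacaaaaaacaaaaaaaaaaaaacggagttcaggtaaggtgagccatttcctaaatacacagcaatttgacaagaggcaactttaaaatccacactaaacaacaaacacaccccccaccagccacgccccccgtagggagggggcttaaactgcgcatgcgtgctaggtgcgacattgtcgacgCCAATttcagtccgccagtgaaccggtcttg
Cbr3 (chr16:93682969-93683268, plus strand): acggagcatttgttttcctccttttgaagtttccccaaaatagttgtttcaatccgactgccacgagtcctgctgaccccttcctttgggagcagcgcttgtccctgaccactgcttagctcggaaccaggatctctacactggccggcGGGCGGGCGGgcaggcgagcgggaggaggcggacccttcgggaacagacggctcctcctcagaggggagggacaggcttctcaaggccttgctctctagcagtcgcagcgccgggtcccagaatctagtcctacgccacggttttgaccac
Cldn14 (chr16:94008788-94009087, minus strand): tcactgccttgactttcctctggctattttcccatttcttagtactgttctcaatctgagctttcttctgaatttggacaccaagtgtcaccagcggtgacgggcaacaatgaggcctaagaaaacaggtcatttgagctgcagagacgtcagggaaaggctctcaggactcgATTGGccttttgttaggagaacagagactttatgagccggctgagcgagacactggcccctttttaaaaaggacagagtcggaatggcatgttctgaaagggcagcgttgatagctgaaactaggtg
The Chaf1b window held 5 GC boxes and 30 CpG dinucleotides. The Cbr3 window held 2 overlapping GC boxes and 19 CpG dinucleotides, whereas the Cbr1 window held no GC box, 1 CCAAT box and 11 CpG dinucleotides. The Cldn14 window held 8 CpG dinucleotides and 1 CCAAT box, close to the median of 7 CpG dinucleotides over all windows. None of the 7 windows held TATAAA. The Dopey2 window held 31 CpG dinucleotides, 8 GC boxes and 2 matches of TGACNNNGC, on opposite strands, that adjoin without sharing a base. The Setd4 window held 29 CpG dinucleotides and 1 CCAAT box, and the Hlcs window held 29 CpG dinucleotides and 1 GC box. Across the 7 windows the CpG counts did not follow the levels described below, where Dopey2 and Hlcs were low. A match is a description of the letters and was not tested for binding.

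Sense-strand gene counts came to 10740618 to 14123131 per library, and 12222 genes passed the filter on low counts. The ko libraries are separate clones, and the study describes the libraries of each group as biological replicates, while the labels do not say how the wild-type cultures were separated. The wild-type library p56 stood apart. Leaving it out raised the number of called genes from 156 to 385, while leaving out any other library lowered it to between 72 and 117. Of 15 pluripotent cell markers, all 15 were tested, 0 passed the test and 4 had an unadjusted p under 0.05 (against 14.3% of all tested genes), and their summed level was 7735 to 7860 CPM in ko and 7235 to 7271 CPM in wild-type. Of 10 fibroblast markers, 2 were tested and 1 (Thy1) was lower, with a summed level of 7.68 to 8.41 CPM in ko and 12.4 to 13.7 CPM in wild-type and with Postn and Dcn at 0. Of 10 primitive endoderm markers, 3 were tested and 1 (Col4a1) was lower, with a summed level of 277 to 310 CPM in ko and 287 to 315 CPM in wild-type. Col4a1 itself had a mean of 22.0 CPM in ko and 41.1 CPM in wild-type. Beside these counts of called markers, the share called over all tested genes was 1.28%. Of 10 trophoblast and 10 neural progenitor markers, 5 and 3 were tested, 0 passed the test and 0 had an unadjusted p under 0.05, with summed levels of 67.2 to 84.6 and 119 to 130 CPM in ko and of 78.0 to 91.4 and 121 to 131 CPM in wild-type, and with Hand1, Tpbpa and Dcx among the markers at 0. The sums of the fibroblast, primitive endoderm, trophoblast and neural progenitor markers each came mostly from a single marker, Thy1 for the fibroblast markers. Such sums can hide differences in the other markers. The part of these markers in the values of the neighbours was not tested. In such bulk samples, fewer cells of a type and less RNA per cell cannot be told apart.

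To check the labels, the level of the edited gene was read before its neighbours. Morc3 had 77.8, 137.9 and 134.6 CPM in the ko clones and 276.8, 272.0 and 302.2 CPM in the wild-type cultures. CPM are counts scaled to a common library size, and values are listed in the order clones 1, 2, 3 and p42, p43, p56 here and for each gene that follows. Every ko clone was below every wild-type culture, and clone 1 was the lowest. The log2 fold change of Morc3 was -1.28 (SE 0.16, 95% interval -1.63 to -0.93, n = 3 per group) and the adjusted p in the quasi-likelihood test of edgeR was 8.4e-04. With a robust fit the adjusted p of Morc3 was 0.018, above the threshold of 0.01.

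None of the flanking genes passed the test. 7 of the 8 genes passed the filter on low counts, and 0 of these 7 were called at an adjusted p under 0.01 by edgeR, against 1.28% of all tested genes. DESeq2 also called 0 of them, against 1.79% of the genes it tested. 2 of the 7, Cbr1 and Cbr3, had an unadjusted p under 0.05, against 14.3% of all tested genes. The ko and wild-type libraries did not overlap for 1 of the 7, Chaf1b, against 19.9% of all tested genes. The log2 fold change was above 0 for 5 genes and below 0 for 2, with a median of 0.12 against -0.00010 over all tested genes. The 95% interval lay above -1, a halving, for 6 of the 7 genes, all but Ripply3, and the lowest bound among these 6 was -0.28. The highest upper bound was 0.73, for Cbr3. Among the 18 single-clone values of these 6 genes, the lowest was Dopey2 in ko clone 2 at 0.927 of the wild-type mean and the highest was Cbr1 in ko clone 2 at 1.47 of it.

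**Figure D1:**
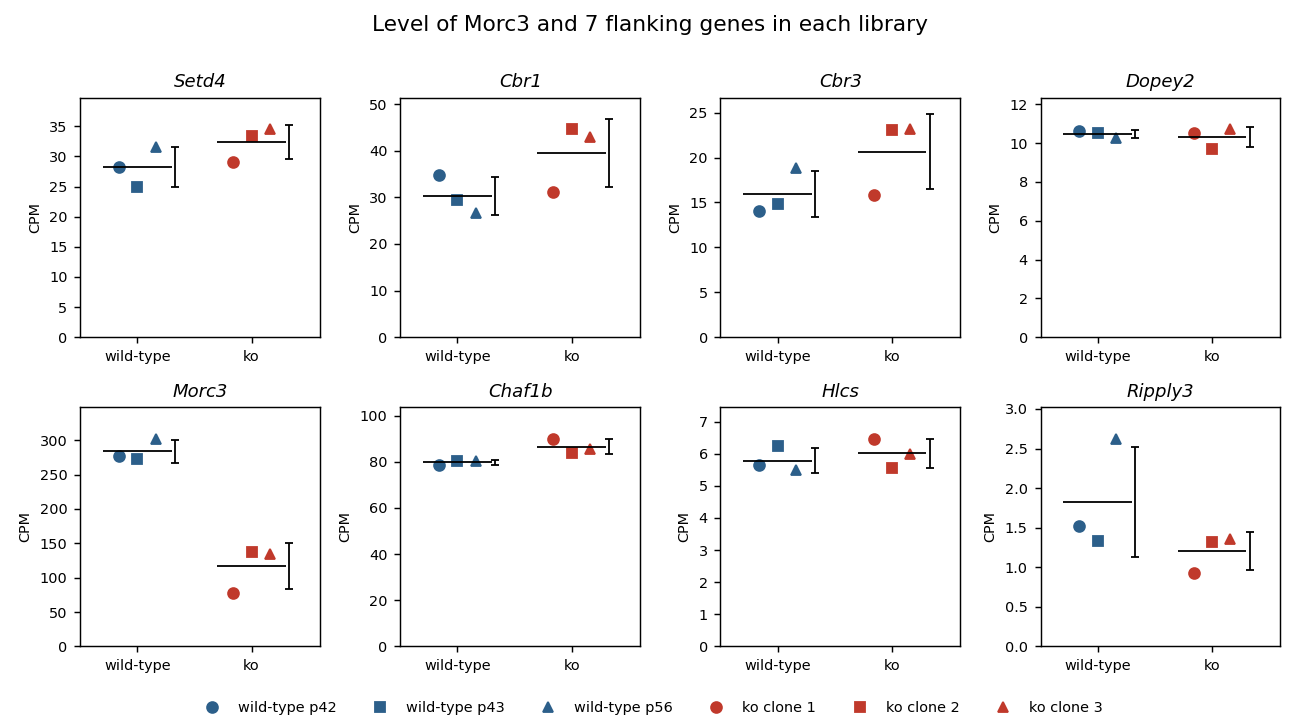
CPM (y axis, from 0) of Morc3 and 7 flanking genes in each wild-type (blue) and ko (red) library, with the group mean as a line and the SD as a bar beside it (n = 3). Morc3 is lower in every ko clone, from 77.8 to 137.9 CPM against 272.0 to 302.2 CPM in wild-type, whereas the groups overlap for all flanking genes but Chaf1b.

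Chaf1b, the closest neighbour, had the highest level of the 8 genes. Its level was 90.0, 83.6 and 85.7 CPM in the ko clones and 78.6, 80.4 and 80.1 CPM in the wild-type cultures. All ko clones lay slightly above all wild-type cultures. The means were 86.4 ± 3.27 CPM in ko and 79.7 ± 0.979 CPM in wild-type (SD, n = 3). Chaf1b had a log2 fold change of 0.12 (SE 0.06, 95% interval -0.02 to 0.26) with an adjusted p of 0.454 by edgeR, so that the difference did not pass the test. The value rests on 944 to 1148 counts per library.

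Dopey2, the closest neighbour on the other side, was low and even. It reached 10.5, 9.71 and 10.7 CPM in the ko clones and 10.6, 10.5 and 10.3 CPM in the wild-type cultures. The groups overlapped. Between the groups Dopey2 differed by -0.02 on the log2 scale (SE 0.12, 95% interval -0.28 to 0.23, adjusted p = 0.961 by edgeR).

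The carbonyl reductase genes had the largest positive differences. Cbr1 reached 31.2, 44.6 and 42.9 CPM in the ko clones and 34.7, 29.5 and 26.6 CPM in the wild-type cultures. Cbr3 reached 15.8, 23.0 and 23.1 CPM in the ko clones and 14.0, 14.8 and 18.8 CPM in the wild-type cultures. For both genes ko clones 2 and 3 lay above all wild-type cultures, while clone 1 lay within the wild-type range. The log2 fold change of Cbr1 was 0.39 (SE 0.14, 95% interval 0.09 to 0.69) with an unadjusted p of 0.0151 and an adjusted p of 0.199 by edgeR. For Cbr3 it was 0.38 (SE 0.16, 95% interval 0.03 to 0.73) with an unadjusted p of 0.0344 and an adjusted p of 0.296 by edgeR. Neither difference passed the test. Without wild-type p56 the log2 fold change of Cbr3 was 0.52 with an adjusted p of 0.026 by edgeR, and without ko clone 1 that of Cbr1 was 0.54 with an adjusted p of 0.052, both still above the threshold.

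The similarity of the reductase genes bears on how their reads were counted. Their coding sequences, each of 831 bases, were 77.4% identical over 833 aligned positions, with 50 bases as the longest identical run. Of the stretches of 50 bases in Cbr3 transcripts, 1 of 1254 also occurred in another annotated gene, namely Cbr1. Cbr1 shared 49 of its 2645 stretches (1.85%), 48 of them with the neighbouring reductase gene model Gm5678, whose coding sequence was 90.4% identical to that of Cbr1. Gm5678 was not analysed separately here, and counts of Cbr1 are uncertain to the extent of this small overlap. Shared stretches were not particular to the reductases. Dopey2 shared 3.93% of its stretches with other annotated genes, Setd4 3.19%, Ripply3 1.69%, Hlcs 1.52% and Chaf1b 0.62%, while Cldn14 shared 0. The counts of these genes carry the same kind of uncertainty where stretches are shared.

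Setd4 lies next to Cbr1. It reached 29.1, 33.5 and 34.5 CPM in the ko clones and 28.2, 25.0 and 31.5 CPM in the wild-type cultures. Again clones 2 and 3 were above all wild-type cultures and clone 1 was within their range. Setd4 had a log2 fold change of 0.20 (SE 0.11, 95% interval -0.03 to 0.43) with an adjusted p of 0.447 by edgeR. It was 0.12 without wild-type p43 (adjusted p = 0.754) and 0.28 without wild-type p56 (adjusted p = 0.097 by edgeR). Over the 6 libraries the log2 CPM of Setd4 and Cbr3 had a Pearson correlation of 0.90, that of Setd4 and Cbr1 0.62 and that of Cbr1 and Cbr3 0.65. These correlations describe 6 libraries of 2 groups that share their depth and their differences between cultures, and 288 tested genes correlated with Setd4 above 0.9.

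Hlcs and Ripply3, on the far side of Cldn14, were low. Hlcs reached 6.47, 5.56 and 5.99 CPM in the ko clones and 5.65, 6.23 and 5.48 CPM in the wild-type cultures, and the groups overlapped. Hlcs had a log2 fold change of 0.05 (SE 0.15, 95% interval -0.28 to 0.38) with an adjusted p of 0.922 by edgeR. Ripply3 reached 0.924, 1.32 and 1.36 CPM in the ko clones and 1.52, 1.33 and 2.63 CPM in the wild-type cultures. These values rest on 10, 15 and 15 counts in the ko clones and on 21, 19 and 34 counts in the wild-type cultures. The groups overlapped, and the highest library was wild-type p56. The log2 fold change of Ripply3 was -0.58 (SE 0.34, 95% interval -1.33 to 0.16) with an adjusted p of 0.492 by edgeR, and it was -0.24 without wild-type p56. At this depth a halving of Ripply3 lay within the interval.

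Cldn14 was not detectable. A single sense count was found in ko clone 1, and the other 5 libraries had 0. A count of 0 allows a level of up to 0.210 to 0.232 CPM in a wild-type library (3 counts, counting error only). For ko clones 2 and 3 these limits were 0.265 and 0.272 CPM. Clone 1, with its single count, is not covered by such a limit. No fold change was computed for Cldn14.

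**Figure D2:**
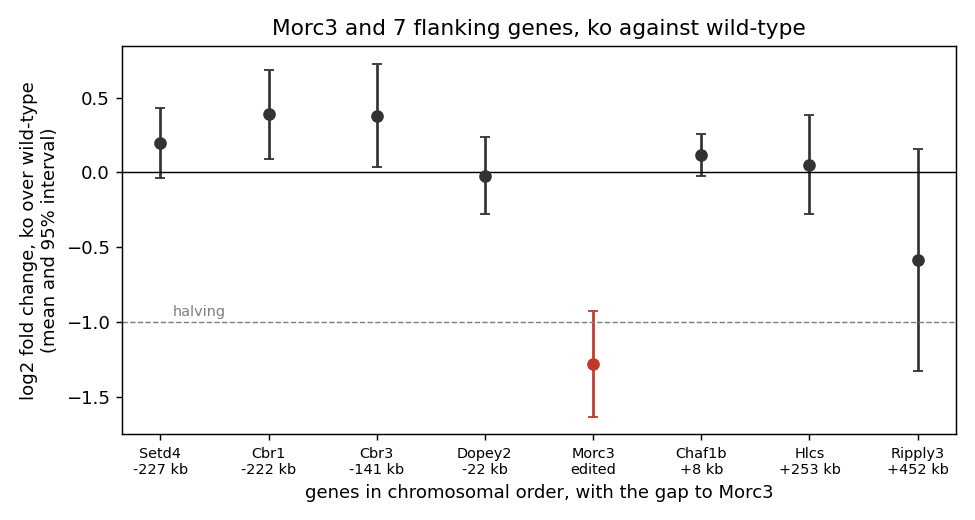
Log2 fold change of ko over wild-type (y axis) with its 95% interval from edgeR for Morc3 (red) and 7 flanking genes (black) in chromosomal order, with the gap to Morc3 under each name. Morc3 is at -1.28, and the flanking genes lie between -0.58 and 0.39, with the widest interval for Ripply3.

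To compare levels between genes, CPM was divided by the summed exon length of each gene in kilobases (RPKM). The order in wild-type was Chaf1b with 17.03 ± 0.209 RPKM, Cbr3 with 12.7 ± 2.05, Cbr1 with 11.8 ± 1.61, Setd4 with 5.25 ± 0.605, Ripply3 with 1.19 ± 0.457, Dopey2 with 1.06 ± 0.0192 and Hlcs with 0.649 ± 0.0441 RPKM (SD, n = 3), followed by Cldn14 at 0. The ranges of Cbr3 and Cbr1 overlapped in wild-type, as did those of Ripply3 and Dopey2. In ko the order was Chaf1b with 18.5 ± 0.698 RPKM, Cbr3 with 16.5 ± 3.36, Cbr1 with 15.5 ± 2.85, Setd4 with 6.01 ± 0.531, Dopey2 with 1.04 ± 0.0539, Ripply3 with 0.786 ± 0.158 and Hlcs with 0.673 ± 0.0508 RPKM (SD, n = 3). In ko the ranges of Chaf1b and Cbr3, of Cbr3 and Cbr1, and of Ripply3 and Hlcs overlapped, whereas those of Dopey2 and Ripply3 did not. Among all tested genes, Chaf1b stood at the 75.9th percentile of RPKM, Cbr3 at the 71.9th, Cbr1 at the 70.6th, Setd4 at the 50.5th and the other tested neighbours between the 13.0th and the 18.8th.

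Dopey2 differed from the other neighbours in its reads on the opposite strand. Opposite-strand counts on Dopey2 were 36, 84 and 66 in the ko clones and 34, 43 and 65 in the wild-type cultures, 328 in all, against 10 for the other 7 genes together, 0 of them on Setd4 or Ripply3. The opposite strand thus took 24.0%, 43.3% and 35.9% of the counts on both strands of Dopey2 in the ko clones and 18.8%, 22.3% and 32.8% in the wild-type cultures. Exact binomial 95% intervals ran from 36.2% to 50.6% in ko clone 2 and from 13.4% to 25.2% in wild-type p42 (the highest and the lowest library, chosen after their values were seen, and counting error only). The groups overlapped, with means of 34.4 ± 9.73% in ko and 24.6 ± 7.31% in wild-type (SD, n = 3). The difference of 9.76 percentage points gave p = 0.2 in an exact two-sided permutation test, in which the smallest p possible is 0.1, and an adjusted p of 1 over the 5 genes tested. Pooled over the libraries, the share was 29.8% for Dopey2, against a median of 0.165% over all tested genes, and 276 tested genes (2.26%) had a higher share.

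**Figure D3:**
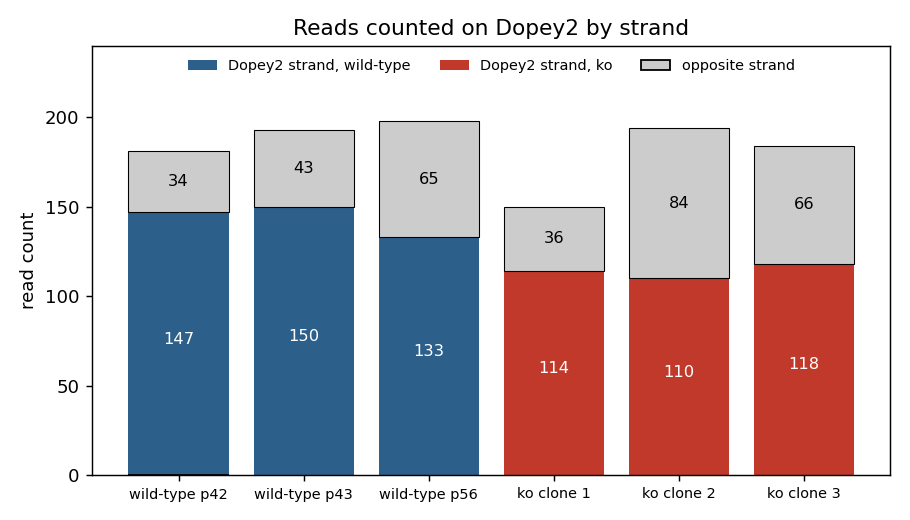
Read counts on Dopey2 in each library (y axis), split into the strand of Dopey2 (wild-type blue, ko red) and the opposite strand (grey), with the counts printed in the bars. The counts on the strand of Dopey2 lie between 110 and 150. Those on the opposite strand vary from 34 to 65 in wild-type and from 36 to 84 in ko.

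The GENCODE annotation of the same assembly places gene models on the minus strand within Dopey2. 2310043M15Rik (chr16:93792136-93794901) overlaps 443 exonic bases of Dopey2, and 396 stretches of 50 bases of Dopey2 transcripts lie in it as well. Gm30881 (chr16:93808540-93833019) overlaps the 3-prime end of Dopey2 and the 5-prime start of Morc3 but no exonic base of Dopey2. Neither model was analysed separately here, and whether either gives rise to the opposite-strand reads was not tested. With counts that ignore strand, which add both strands, the log2 fold change of Dopey2 was 0.19 with an adjusted p of 0.551 by edgeR, opposite in sign to the strand-specific value.

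To see whether the wider region behaved like the neighbours, all genes within 2 Mb of Morc3 were examined. Of 32 gene rows there, 17 passed the filter. By edgeR 0 were called, against 1.28% of all tested genes, and by DESeq2 0, against 1.79% of the genes it tested. 4 of the 17 had an unadjusted p under 0.05 by edgeR, against 14.3% of all tested genes. 2 of these 4 were Cbr1 and Cbr3, and 2 lay outside the 8 neighbours. The log2 fold changes ranged from -0.58 to 0.39 with a median of -0.01. The 10 tested genes outside the 8 neighbours had a median of -0.03. The nearest of them on the lower-coordinate side was Rcan1, an inhibitor of calcineurin 1366 kb away, with 21.5 ± 2.31 CPM in ko and 21.3 ± 1.49 CPM in wild-type (SD, n = 3) and a log2 difference of 0.01 (SE 0.11, adjusted p = 0.976 by edgeR). On the other side it was Pigp, which acts in the synthesis of GPI anchors and lies 483 kb away, with 10.3 ± 1.28 CPM in ko and 9.48 ± 1.49 CPM in wild-type and a log2 difference of 0.13 (SE 0.15, adjusted p = 0.774 by edgeR). Over chromosome 16 as a whole, 9 of 361 tested genes (2.49%) were called, with Morc3 itself among them, and the median log2 fold change was 0.03.

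**Figure D4:**
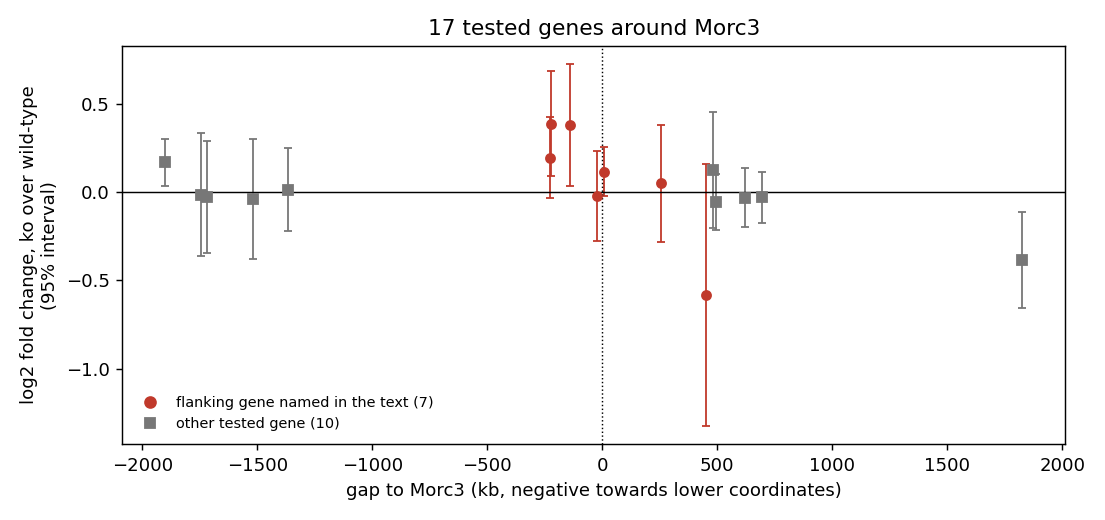
Log2 fold change of ko over wild-type with its 95% interval (y axis) against the gap to Morc3 in kb (x axis) for the 17 tested genes within 2 Mb, with 7 flanking genes in red and 10 further genes in grey. The values range from -0.58 to 0.39, and 0 genes were called by edgeR, against 1.28% of all tested genes.

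Genes of the pathway or gene family of each neighbour were examined as lists, which include the neighbours themselves. By edgeR, 0 genes of the 7 lists were called, against 1.28% of all tested genes. DESeq2 called 2 (Akr1b8 and Atrx), against 1.79% of the genes it tested. Beside the counts of list genes at an unadjusted p under 0.05 that follow, the share over all tested genes was 14.3% with edgeR. Among 19 genes of CAF-1 and of histone H3-H4 assembly, all 19 were tested, 2 had an unadjusted p under 0.05, and the median log2 fold change was 0.04 (range -0.33 to 0.31). The most counted were the histone chaperone Nasp, with 1219 ± 103 CPM in ko and 1172 ± 39.4 CPM in wild-type (log2 fold change 0.06, adjusted p = 0.772), and the replicative helicase subunit Mcm2, with 606 ± 16.5 and 581 ± 18.8 CPM (log2 fold change 0.06, adjusted p = 0.710). Among 27 carbonyl and aldo-keto reductases and related dehydrogenases, 20 were tested, 7 had an unadjusted p under 0.05, and the median was -0.03 (range -0.53 to 0.82). The most counted were the aldehyde reductase Akr1a1, with 285 ± 11.7 and 273 ± 7.78 CPM (log2 fold change 0.06, adjusted p = 0.715), and the peroxisomal enzyme Hsd17b4, with 117 ± 5.12 and 121 ± 2.97 CPM (log2 fold change -0.05, adjusted p = 0.806). The reductase with the lowest adjusted p, chosen after its values were seen, was Akr1b8, with 22.5 ± 3.25 CPM in ko and 12.7 ± 2.41 CPM in wild-type, a fitted log2 difference of 0.82 (SE 0.15) and adjusted p = 0.012 by edgeR, just above the threshold.

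The remaining lists also had medians near 0. All 10 genes of the biotin cycle were tested, 3 with an unadjusted p under 0.05, with a median log2 fold change of -0.02 (range -0.30 to 0.30). Acaca, the cytosolic acetyl-CoA carboxylase, reached 88.5 ± 1.63 CPM in ko and 102 ± 1.87 CPM in wild-type (log2 fold change -0.20, adjusted p = 0.126), and Mccc2, a subunit of methylcrotonyl-CoA carboxylase, 41.6 ± 4.11 and 40.3 ± 3.73 CPM (log2 fold change 0.05, adjusted p = 0.883). Of 33 claudins and tight junction genes, 15 were tested, 3 with an unadjusted p under 0.05, with a median of 0.10 (range -0.33 to 0.66). The scaffold gene Tjp1, with 133 ± 10.1 and 139 ± 5.44 CPM, had a log2 fold change of -0.07 (adjusted p = 0.731). Of 17 T-box, Groucho and Ripply genes, 9 were tested, 2 with an unadjusted p under 0.05, with a median of 0.04 (range -0.58 to 1.18). Aes, with 118 ± 5.18 and 116 ± 12.8 CPM, and Tle4, with 91.8 ± 4.55 and 96.0 ± 1.81 CPM, both Groucho family genes, had log2 fold changes of 0.03 and -0.06 (adjusted p = 0.910 and 0.729). All 9 genes of the Dopey-Mon2 pathway were tested, 0 with an unadjusted p under 0.05, with a median of -0.04 (range -0.14 to 0.17). Kif5b, a kinesin heavy chain, with 414 ± 19.4 and 428 ± 36.1 CPM, and the sorting nexin Snx3, with 81.9 ± 4.40 and 81.0 ± 2.72 CPM, had log2 fold changes of -0.05 and 0.02 (adjusted p = 0.833 and 0.9496). All 12 SET domain genes were tested, 0 with an unadjusted p under 0.05, with a median of 0.06 (range -0.46 to 0.36). Setdb1, which deposits H3K9me3, with 182 ± 13.1 and 192 ± 19.8 CPM, and Setd5, with 130 ± 5.69 and 128 ± 2.37 CPM, had log2 fold changes of -0.07 and 0.03 (adjusted p = 0.754 and 0.886). Each pair of CPM values gives ko first and wild-type second (SD, n = 3), and each adjusted p is from edgeR.

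**Figure D5:**
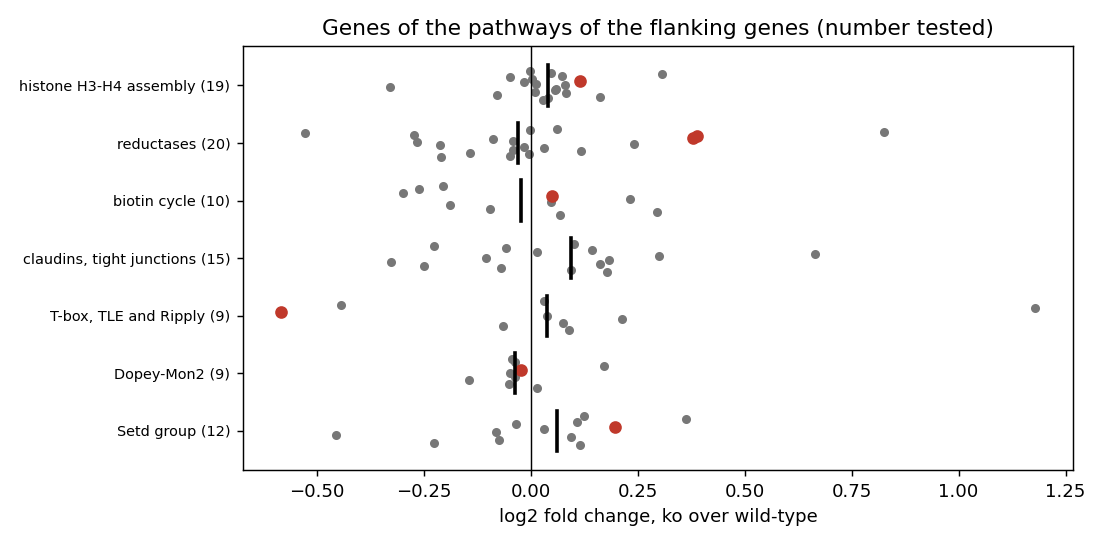
Log2 fold change of ko over wild-type (x axis) for each tested gene of the 7 lists, with the number tested beside each list, flanking genes in red and the list median as a black line. The medians lie between -0.04 and 0.10, and 0 genes passed the edgeR test, against 1.28% of all tested genes.

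The tested gene most like each neighbour over the 6 libraries was named from log2 CPM. It was Qtrtd1 for Setd4, Ak6 for Cbr1, Dnajc8 for Cbr3, Hoxc13 for Dopey2, Deptor for Chaf1b, Rnf8 for Ripply3 and Nek1 for Hlcs. The Pearson correlations were 0.981 for Dopey2 with Hoxc13 and 0.993 to 0.996 for the other pairs. Each neighbour had 53 to 328 tested genes above 0.9, and with 6 libraries such values are a description only.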

How the data were processed

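Total RNA of 6 libraries was depleted of ribosomal RNA and made into strand-specific libraries. The authors aligned the reads to mm10 with STAR, and the deposited files hold raw counts per gene and library for both strands together and for each strand. No source used here names the gene annotation behind them. Sense counts were read from the same strand column in every library, which had the larger sum in each. Reads without a gene (36.98% ± 0.63 in ko and 36.28% ± 0.10 in wild-type, SD, n = 3) stayed out of library sizes and tests.

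Sense counts came to 10740618 to 14123131 per library. They were tested with the quasi-likelihood test of edgeR 4.0.16 in R 4.3.3 (TMM, filterByExpr at its defaults of 10 counts per library and 15 in total, no covariate beside group). Two-sided p-values were adjusted after Benjamini and Hochberg over all 12222 tested genes, and genes were called at an adjusted p under 0.01. The scripts were tested on simulated data. Fold changes use a prior count of 0.125, and SE is the fitted change divided by the root of F. CPM used TMM-scaled library sizes. Intervals of shares (Clopper-Pearson, SciPy 1.17.1) and floors of 3 counts cover counting error only. Alternatives were DESeq2 1.42.0, limma 3.58.1 (voom), RLE factors, no filter, counts that ignore strand, a robust fit, an adjusted p under 0.05 and leaving out each library.

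Positions came from RefSeq (GRCm38.p6), where 22539 of 24054 rows matched their current symbol, another 1334 an earlier name, and 181 had no match. Exon lengths, transcripts and opposite-strand models came from GENCODE, and coding sequences were aligned with Biopython 1.88. Named genes were Morc3, all 8 neighbours, every called gene within 2 Mb or in a list, the nearest tested gene beyond the neighbours on each side, the 2 most counted genes of a list without a called gene, and the most similar tested gene of each neighbour. Some genes that this rule or the marker lists would name are not reported here. The neighbours and gene lists were chosen with earlier results of these data known.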

Additional observations from a re-analysis of the deposited data

How the results depend on the processing

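The 8 neighbours and the genes within 2 Mb gave 0 called genes under all 13 alternatives run. The median log2 fold change of the neighbours stayed between 0.09 and 0.19. The sign turned for Dopey2 with counts that ignore strand (0.19), which add its opposite-strand reads, and without ko clone 2 (0.0217), and for Hlcs without ko clone 1 (-0.00076). Of the genes in the 7 lists, 2 were called by DESeq2 (Akr1b8 and Atrx), 1 with no filter and 1 with the robust fit (Akr1b8 both times), 0 to 2 when a library was left out, and 3 at an adjusted p under 0.05 (Akr1b8, Akr1e1 and Atrx). The cause was not tested. Over all genes, DESeq2 called 254 of 14191 tested genes, the fit with no filter 286 of 17522 and the robust fit 164 of 12222, against 156 of 12222. Leaving out a library gave from 72 of 12520 (without ko clone 3) to 385 of 12315 (without wild-type p56). The share of all tested genes at an adjusted p under 0.05 was not computed. Leaving out a library moved the difference in the opposite-strand share of Dopey2 from 9.76 to between 5.30 (without ko clone 2) and 14.95 percentage points (without ko clone 1). No paired analysis was possible because the numbers of the ko clones and of the wild-type cultures do not match. The counts of Ripply3 and Cldn14 limit what can be said of both genes.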
